A study of Mus musculus with 12 samples.

Results

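The collagen gene family in whole mouse retina is described here across genotype and age. Its 43 members are the genes whose symbol begins with Col, followed by a number, an a and a number, and they were chosen by their mean CPM (a library's count of the gene per 1e6 of its counts), which had to be at least 0.3 over the 12 libraries. By symbol alone there were 44 such genes among the 27179 gene IDs of the count files. The lowest members were Col28a1, with a mean of 0.390 CPM, and Col14a1, with 0.452 CPM, and the only gene left out was Col10a1, with 0.0956 CPM. Since the mean chose the members, their levels are given as a description. By collagen class there were 11 fibrillar members, 8 of basement membranes, 9 FACITs (fibril-associated collagens with interrupted triple helices) and 15 others.

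Collagens are secreted or membrane-bound proteins in which chains wind into a triple helix, so that the level of a trimer depends on several genes at once. Fibrillar collagens build the fibrils of sclera, vitreous and cartilage, FACITs sit on the surface of such fibrils, and type IV collagens form the sheets under vessels, under the pigment epithelium and at the inner limiting membrane, which the end feet of Müller glia and astrocytes adjoin. The remaining types include the microfibrils of type VI, the lattices of type VIII and several transmembrane collagens.

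The groups were control retina and retina labelled glial knockout of ABCA1 (KO), a transporter that exports cholesterol and phospholipids, aged 3 or 12 months, and each of the 4 groups had 3 libraries. One protocol text calls the mice Astro-KO, and the sources used here do not give the driver of the deletion, the strain, the sex or any pooling of animals. Polyadenylated RNA was sequenced as stranded libraries of 29027099 to 30438026 counts. Nothing in the labels ties the libraries of a group to separate animals, so the p-values rest on a spread between samples that may be technical.

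Abca1 itself was not lower in KO retina. Its level at 3 months was 22.7 ± 3.34 scaled CPM in control and 26.3 ± 1.78 in KO libraries (SD, n = 3 each), where scaled means per library size after TMM scaling, and at 12 months it was 30.8 ± 2.66 and 36.3 ± 7.91 (SD, n = 3 each). Gene counts from whole retina thus do not check the KO label, and KO below means the libraries labelled so. Markers of retinal neurons summed to 41600 to 50000 scaled CPM in every library, those of Müller glia to 4430 to 4950 and those of astrocytes to 94.8 to 118, as the tissue label has it. Control library 2 of 3 months stood apart, with 12 lens markers summing to 4580 scaled CPM against 9.5 to 177 in the other libraries, and all 3 control libraries of 3 months held 83.9 to 96.3 scaled CPM of 12 skeletal muscle markers against 5.5 to 10.3 elsewhere. The lens markers also summed to 44.1 and 177 in control libraries 1 and 3 of 3 months, against 9.5 to 31.3 in the other groups. KO library 1 of 12 months also differed from its group, by 21.6 and 25.0 times the counting variance against 5.16 between the other two. Results that rest on control library 2 of 3 months or KO library 1 of 12 months are given with and without that library. The 3 control libraries of 3 months cannot be left out together, so comparisons with that group keep their skeletal muscle RNA.

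Levels were compared between genes per length, as TMM-scaled CPM per kilobase of exon. Retina held members of every class, from 31.9 scaled CPM per kb for Col6a1 to 0.0645 for Col14a1 as means over the 12 libraries. Col14a1 had 5 to 25 counts per library. Col6a1, a chain of the type VI microfibrils, ranked first, and Col23a1, a transmembrane collagen, followed with 21.3 scaled CPM per kb. Col2a1, the main fibrillar chain of cartilage and vitreous, had 20.2 scaled CPM per kb and Col9a1, which coats type II fibrils, had 15.4. The chains of the fibrils of sclera and skin were low, with 0.942 scaled CPM per kb for Col1a1, 0.362 for Col1a2 and 0.110 for Col3a1. In bulk tissue, fewer cells of a type and less RNA per cell cannot be told apart.

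**Figure D1:**
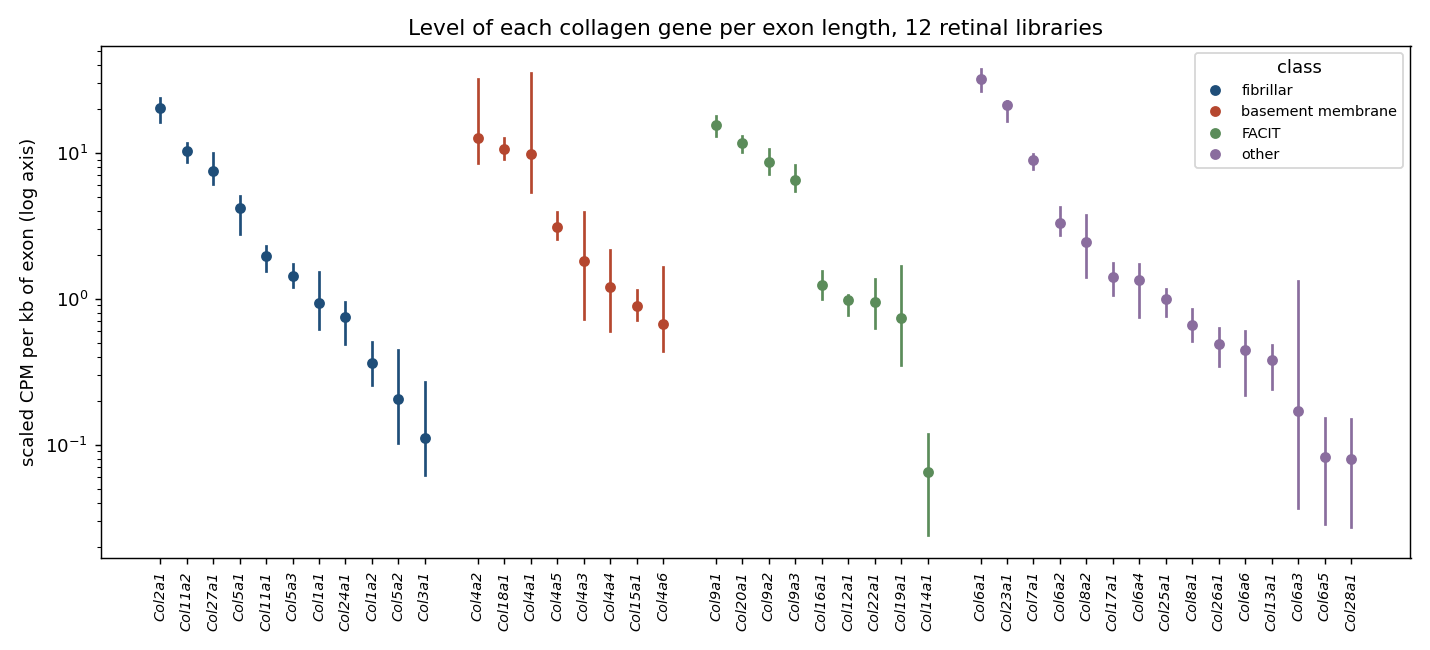
Level of each of the 43 collagen genes on a log axis (scaled CPM per kb of exon), by class; points are means over the 12 libraries and bars span the lowest to the highest library. Most bars are short beside the distance between genes; the longest is that of Col6a3, where the highest library exceeds the lowest by 35.9 times, followed by Col4a1 at 6.54 and Col28a1 at 5.5 times.

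The classes overlapped widely in level. The median over members was 2.46 scaled CPM per kb for the basement membrane class, 1.43 for the fibrillar class, 1.25 for FACITs and 1.0 for the others, and in each class the highest member exceeded the lowest by more than an order of magnitude. The coefficient of variation over the 12 libraries had a median of 45.4% in the basement membrane class, against 11.4% for FACITs, 13.9% for fibrillar and 19.4% for other members. Without control library 2 of 3 months these medians were 14.4%, 10.6%, 13.5% and 20.1%, so the basement membrane class no longer stood apart. Col23a1, at 7.59%, and Col7a1, the collagen of anchoring fibrils, at 7.75%, were among the steadiest members with and without that library. Col6a3 had the highest value, 213%, with that library and 36.2% without it, where Col4a3, Col5a2, Col19a1 and Col3a1 led with 56.8%, 55.7%, 55.3% and 54.1%.

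Chains that share a trimer were often unequal in level. Col6a1 exceeded its partner Col6a2 by a median of 9.68 times per kb, with a range of 7.98 to 11.1 over the 12 libraries, and exceeded Col6a3 by a median of 452 times. Col11a2 exceeded Col11a1, its partner in type XI fibrils, by 5.26 times (range 4.15 to 6.25), and Col9a1 exceeded Col9a2 by 1.71 times (1.55 to 2.08) and Col9a3 by 2.38 times (1.82 to 3.00). Except for that with Col6a3, each of these ratios stayed within a 2-fold range over the 12 libraries. Their size also depends on the annotated exon lengths, which were 4.38 kb for Col6a1 and 8.33 kb for Col6a2. Those of Col11a2 and Col11a1 were 6.87 and 12.74 kb. Before division by length, the means were 139.8 scaled CPM for Col6a1 and 27.4 for Col6a2, and 70.45 for Col11a2 and 25.1 for Col11a1. The ratio of Col5a1 to Col5a2, the chains of type V collagen that starts fibril assembly, was 11.7 ± 2.5 (SD, n = 3) in control retina at 12 months and had means of 25.6 to 32.1 in the other groups.

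The summed level of all 43 members was similar between groups. At 3 months it was 1540 ± 273 scaled CPM in control and 1367 ± 21.9 in KO libraries, and at 12 months 1408 ± 90.8 and 1326 ± 148.5 (SD, n = 3 each). By library, the sums were 1344, 1852 and 1424 in control at 3 months and 1155, 1397 and 1425 in KO at 12 months. The highest was thus control library 2 of 3 months and the lowest KO library 1 of 12 months. The basement membrane class summed to 251.5, 642.1 and 265.1 scaled CPM in the control libraries of 3 months. Control library 2 thus set the wide spread of that group, and without it the control mean was 258.3 scaled CPM against 249.9 ± 9.0 (SD, n = 3) in KO libraries of that age. FACITs were the steadiest class, between 211.8 and 255.8 scaled CPM in every library.

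**Figure D2:**
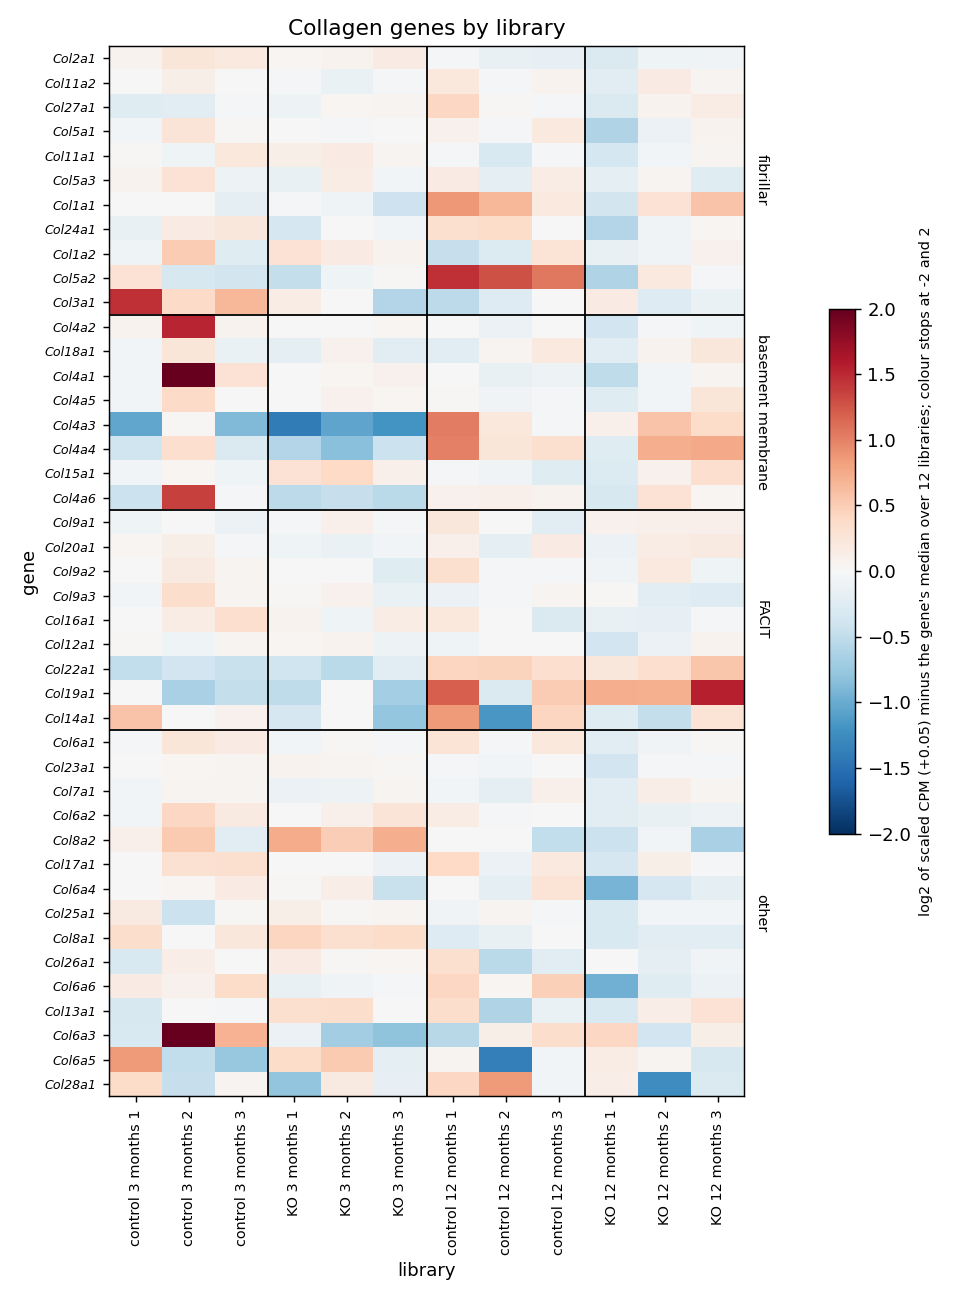
Each row is a collagen gene, ordered by class and level, and each column a library; colour gives log2 of scaled CPM (plus 0.05) minus the gene's median over the 12 libraries, and stops at -2 and 2. Col5a2 is red in the 3 control libraries of 12 months, Col22a1 turns from blue to red between 3 and 12 months, and control library 2 of 3 months is deep red for Col4a1, Col4a2, Col4a6 and Col6a3.

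The first comparison set KO against control libraries of 12 months. Col5a2, the second chain of type V collagen, was the 1 member that passed the test, and it fell. All 43 members were tested within a fit across 16475 genes, in which 0.212% of genes passed an adjusted p of 0.05 and 0.085% did so with a lower level in KO retina. No other fibrillar, basement membrane, FACIT or other collagen passed.

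Col5a2 (Entrez 12832, chromosome 1 from 45374331 to 45503282, minus strand, GRCm38) had 4.27, 3.77 and 3.21 scaled CPM in the control libraries of 12 months and 0.991, 1.75 and 1.49 in the KO libraries of that age. The groups did not overlap, and every KO library lay below every control library. Its counts were low, at 95 to 128 per control library and 30 to 52 per KO library. The log2 fold change was -1.41 ± 0.27 (SE; edgeR quasi-likelihood test, Benjamini-Hochberg adjusted p = 0.0248), or 2.65-fold lower. The call was lost without control library 1 or 2 or without KO library 1 or 3 of 12 months, where the log2 fold change was -1.30, -1.40, -1.21 and -1.45 and the adjusted p 0.168, 0.123, 0.117 and 0.103. Over all 22 alternatives of this result the log2 fold change ran from -1.59 to -1.21 and the edgeR, DESeq2 or limma adjusted p from 0.00111 to 0.168.

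The low value was shared with young retina. At 3 months Col5a2 had 1.87, 1.21 and 1.17 scaled CPM in control and 1.08, 1.44 and 1.56 in KO libraries, which overlapped with each other and with the KO libraries of 12 months. The 12-month control group was thus the group that stood apart. Col5a1, its partner chain, had 37.9, 34.8 and 41.3 scaled CPM in control and 23.8, 33.2 and 37.6 in KO libraries of 12 months, and its log2 fold change was -0.27 ± 0.13 (SE; edgeR adjusted p = 0.574). Col5a3, a further chain of type V collagen, had a KO log2 fold change of -0.17 ± 0.14 (SE; edgeR adjusted p = 0.762) at 12 months. Col3a1, whose 3′ end lies 24624 bases from that of Col5a2 on the opposite strand, had a log2 fold change of 0.19 ± 0.37 (SE; edgeR adjusted p = 0.912).

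In the authors' deposited table for the 12-month comparison, Col5a2 was likewise the 1 collagen gene of 43 with an adjusted p below 0.05. The authors' deposited table gives it a log2 fold change of -0.46 with a standard error of 0.096 and an adjusted p of 0.00117, on a scale that appears shrunken towards 0. Of the 17139 genes with an adjusted p in the authors' deposited table, 109 or 0.636% were below 0.05.

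**Figure D3:**
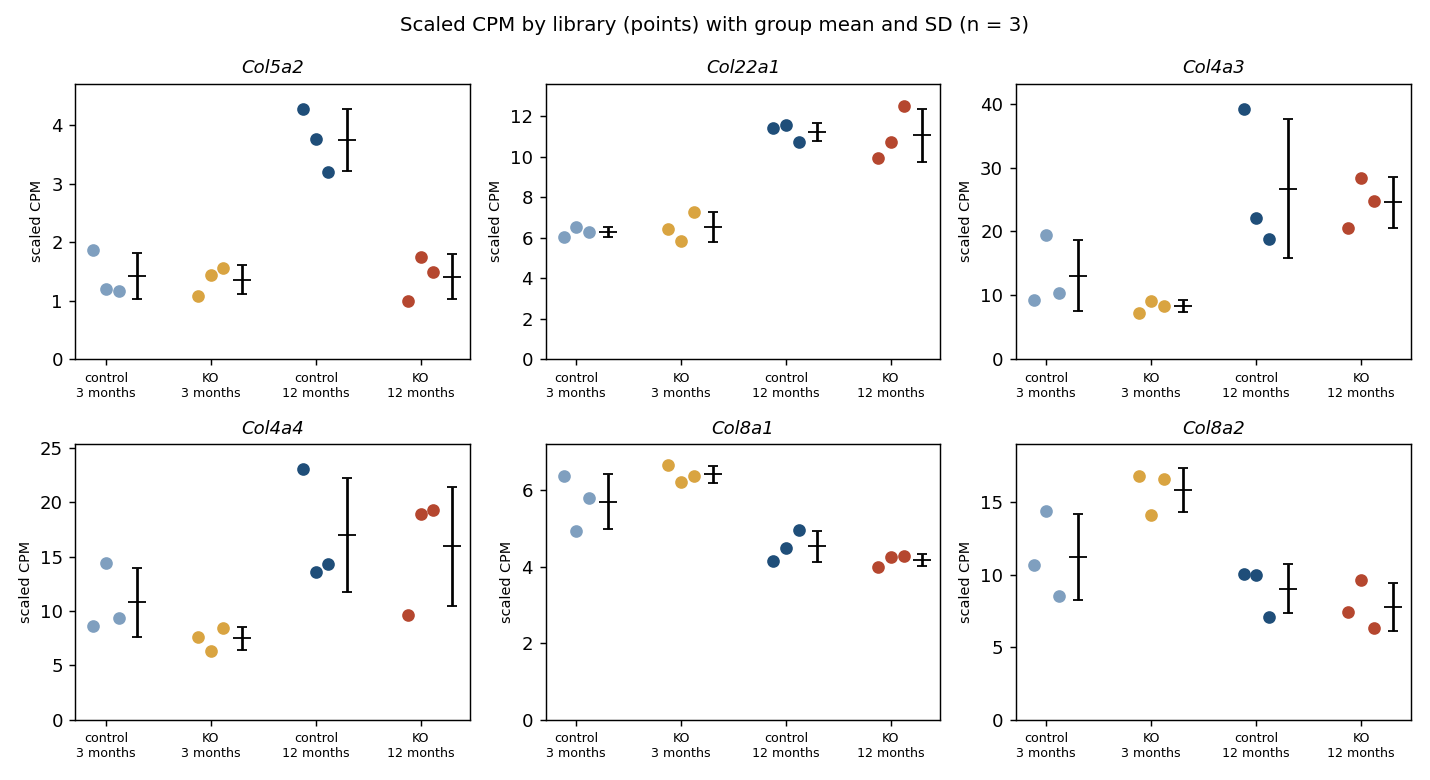
Scaled CPM of 6 collagen genes in the 12 libraries (points), with the mean and SD of each group of 3 beside them; the vertical axes start at 0 and differ between panels. Col5a2 is highest in control retina of 12 months, Col22a1 is higher at 12 months in both genotypes, and Col8a1 and Col8a2 are lower in KO retina of 12 than of 3 months.

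Values that moved with the 12-month groups are given beside Col5a2. Fibroblast and sclera markers, which include other matrix genes, summed to 20.5, 40.9 and 57.4 scaled CPM in control and 48.5, 44.7 and 49.9 in KO libraries of 12 months. Of the 6 such markers tested, 4 had a positive and 2 a negative log2 fold change, from -0.70 to 0.42, 0 passed, and 1 was lower in KO libraries with no overlap. Their part in the level of Col5a2 was not tested. Xist, the RNA of the inactive X chromosome, had 0.167 to 0.203 scaled CPM in control libraries and 52.3 to 85.5 in KO libraries of 12 months, and at most 0.609 in the libraries of 3 months. The Y-linked gene Ddx3y had 34.0 ± 3.88 scaled CPM (SD, n = 3) in control and 40.4 ± 6.05 (SD, n = 3) in KO libraries of 12 months. Sex is not in the labels, and its part in the level of Col5a2 was not tested. The X-linked collagens Col4a5 and Col4a6 had log2 fold changes of 0.02 ± 0.13 and -0.06 ± 0.37 (SE) at 12 months and did not pass.

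Col6a6 and Col6a4, chains of type VI collagen, came next in order of p without passing. Col6a6 had 5.28, 4.07 and 5.5 scaled CPM in control and 2.02, 3.33 and 3.67 in KO libraries of 12 months, with no overlap and a log2 fold change of -0.72 ± 0.21 (SE; edgeR adjusted p = 0.230). Col6a4 had 12.2, 10.7 and 14.7 scaled CPM in control and 6.34, 9.55 and 10.5 in KO libraries, again with no overlap and a log2 fold change of -0.51 ± 0.18 (SE; edgeR adjusted p = 0.406). Without KO library 1, the log2 fold changes of Col6a6 and Col6a4 were -0.50 and -0.32. In all, 4 members had KO values below every control value and 0 had values above, against 8.33% and 8.32% of all genes. An unadjusted p below 0.05 was reached by 5 members, or by 8.7% of all genes.

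The abundant members did not pass at 12 months, and their KO and control values overlapped. Col2a1 had 179.9, 167.9 and 166.2 scaled CPM in control and 151.3, 175.6 and 176.7 in KO libraries. Col6a1 had 164.0, 132.3 and 155.6 scaled CPM in control and 115.9, 128.3 and 136.7 in KO libraries, with a log2 fold change of -0.25 ± 0.09 (SE; edgeR adjusted p = 0.412). Col27a1, a fibrillar chain of cartilage, had 130.2, 99.7 and 96.0 scaled CPM in control and 79.9, 102.8 and 108.3 in KO libraries. In each of these genes KO library 1 was the lowest library of its age.

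Col23a1 followed the same order, with 121.5, 119.5 and 123.6 scaled CPM in control and 94.7, 120.9 and 120.7 in KO libraries of 12 months. Col9a1 differed from it, with 90.8, 77.8 and 65.9 scaled CPM in control and 82.1, 83.2 and 83.1 in KO libraries. Col20a1, a FACIT, had 63.7, 52.4 and 67.0 scaled CPM in control and 54.8, 65.9 and 67.6 in KO libraries. For these FACITs KO library 1 lay within the range of the control libraries. Col18a1, a basement membrane collagen whose terminal fragment is endostatin, had 64.6, 77.5 and 85.9 scaled CPM in control and 64.2, 79.0 and 88.0 in KO libraries. Col4a2, the most abundant basement membrane member, had 73.7, 67.9 and 73.2 scaled CPM in control and 56.1, 71.1 and 69.1 in KO libraries of 12 months, and the groups overlapped.

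Of the 43 members, 29 had a negative log2 fold change at 12 months, or 67.4% against 50.7% of all genes, and their median was -0.10 against 0.00 over all genes. The class medians were -0.16 for fibrillar members, -0.13 for others, -0.08 for FACITs and -0.07 for basement membrane members. These values moved with single libraries. With each library left out in turn, 24 to 35 members had a negative log2 fold change and the median ran from -0.16 to -0.03, and limma-voom gave 22 members and a median of -0.04. KO library 1 of 12 months was the lowest of all 12 libraries for 21 of the 43 members, and without it the number was 24, the median -0.03 and that of the basement membrane class 0.11. Without control library 2 of 12 months the number was 35, and without KO library 2 the median was -0.16.

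At 3 months the comparison of KO with control retina asked whether collagen genes already differed in young animals, and 0 of the 43 members passed. In the edgeR fit 0.225% of all genes passed, 0.0668% higher and 0.158% lower in KO retina, and 4 members had an unadjusted p below 0.05, as did 7.5% of all genes. DESeq2 called 0 members and limma-voom with quality weights called 1, Col8a2, against 0.29% and 0.48% of all genes. The largest differences were in type IV collagens, in Col6a3 and in Col3a1, and most of them rested on 1 control library.

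Col4a1 and Col4a2, which make the common type IV network of basement membranes and are transcribed head to head from neighbouring starts, had their highest values in control library 2 of 3 months. Col4a1 had 55.5, 263.0 and 70.2 scaled CPM in the 3 control libraries and 57.0, 59.3 and 60.9 in the KO libraries of 3 months. Col4a2 had 77.0, 211.1 and 76.9 scaled CPM in control and 73.7, 73.1 and 75.1 in KO libraries. That control library held 3.75 times the Col4a1 and 2.74 times the Col4a2 of the highest other library.

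Col4a6, a chain of the X chromosome, and Col6a3, the long chain of type VI, behaved alike in that library. Col4a6 had 3.77, 13.2 and 4.92 scaled CPM in control and 3.51, 3.67 and 3.48 in KO libraries of 3 months. Col6a3 had 0.646, 15.8 and 1.34 scaled CPM in control and 0.743, 0.480 and 0.440 in KO libraries. The lens markers summed to 44.1, 4580 and 177 scaled CPM in the same 3 control libraries, and a list of cornea markers reached 29.3 in library 2 against 1.82 to 5.31 in the libraries of the other groups, with Kera at 0 in all of them. Of the 3 cornea markers tested, 1 had a negative and 2 a positive KO log2 fold change at 3 months, from -4.67 to 0.65. The cornea keratin Krt12 had 1.37 to 2.51 scaled CPM in control and 1.59 to 2.33 in KO libraries of 3 months.

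Leaving that library out brought the means of Col4a1 and Col4a2 close together. Col4a3 and Col4a4 were also highest in that library among the 3 control libraries of 3 months. The ratio of the KO to the control mean went from 0.456 to 0.941 for Col4a1, from 0.608 to 0.962 for Col4a2, from 0.487 to 0.818 for Col4a6 and from 0.0935 to 0.558 for Col6a3. The median log2 fold change of the basement membrane class went from -0.60 to -0.07. Control libraries 1 and 3, which remained, had lens marker sums of 44.1 and 177 scaled CPM, against 9.5 to 31.3 in the other groups. The part of lens, cornea or other tissue in these values was not tested.

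**Figure D4:**
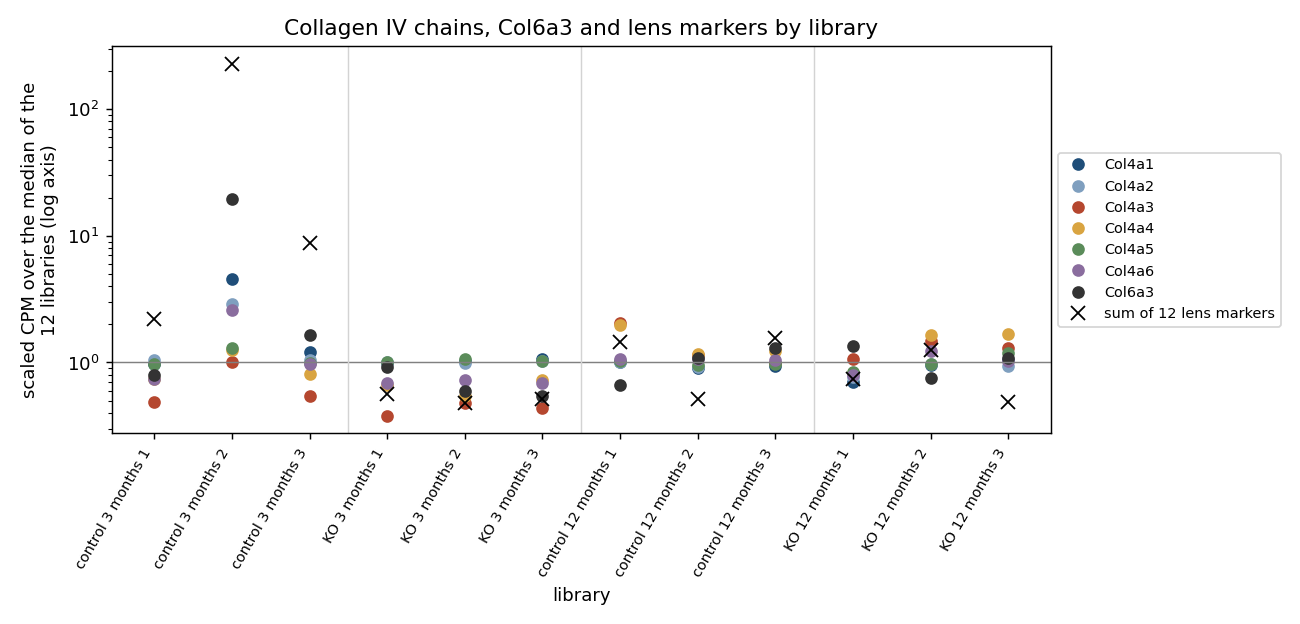
Scaled CPM of the 6 type IV chains and Col6a3, and of the sum of 12 lens markers (crosses), each divided by its median over the 12 libraries, on a log axis. In control library 2 of 3 months Col6a3, Col4a1, Col4a2 and Col4a6 are high together with the lens markers, while Col4a3 and Col4a4 lie above the other 2 control libraries of 3 months and near their medians over all ages.

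Col3a1, a fibrillar collagen of vessels and loose connective tissue, had 2.65, 1.24 and 1.51 scaled CPM in control and 1.05, 0.926 and 0.609 in KO libraries of 3 months. The groups did not overlap, and the log2 fold change was -1.06 ± 0.35 (SE; edgeR adjusted p = 0.593). Skeletal muscle markers were also high in these 3 control libraries, and their part in Col3a1 was not tested. Of all 43 members 9 had KO values below and 2 had KO values above every control value, against 7.66% and 7.97% of all genes.

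Among all members 29 had a negative log2 fold change at 3 months, or 67.4% against 49.5% of all genes, with a median of -0.10 against 0.00. Without control library 2 the number was again 29 and the median -0.05. At both ages 22 members had a negative and 7 a positive log2 fold change. The abundant Col2a1, at 195.6, 219.7 and 212.0 scaled CPM in control and 191.3, 195.8 and 207.0 in KO libraries, and Col6a1, at 133.4, 159.8 and 151.2 in control and 130.6, 137.8 and 132.3 in KO libraries, overlapped between genotypes. Col9a1, at 73.0, 76.6 and 70.9 scaled CPM in control and 75.6, 83.0 and 75.8 in KO libraries, and Col23a1, at 123.6, 126.5 and 129.0 in control and 129.4, 128.9 and 125.4 in KO libraries, did so too.

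The remaining abundant members of each class also failed to pass at 3 months. Col27a1 had 82.8, 83.2 and 95.9 scaled CPM in control and 90.9, 100.1 and 101.6 in KO libraries. Col18a1 had 72.6, 88.9 and 68.1 scaled CPM in control and 66.3, 79.5 and 64.2 in KO libraries. These groups overlapped, whereas Col20a1, at 61.3, 64.8 and 57.7 scaled CPM in control and 56.2, 54.0 and 57.4 in KO libraries, was lower in each KO library by a small margin, with a log2 fold change of -0.13 (edgeR adjusted p = 0.710).

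Whether the genotype effect itself changed between the ages was tested as the difference of the KO effects, and 0 of the 43 members passed. In this edgeR test 0.127% of all genes passed, 0.109% with a positive and 0.0182% with a negative difference, and 3 members had an unadjusted p below 0.05 against 4.33% of all genes. DESeq2 and limma-voom called 0 members, against 0.202% and 0.303% of all genes. Col5a2 came first, with a difference of -1.35 ± 0.39 on the log2 scale (SE; edgeR unadjusted p = 0.00276, adjusted p = 0.648). Its KO effect was -0.06 at 3 months and -1.41 at 12 months, so the larger effect at 12 months is not shown to differ from that at 3 months. Col8a2 and Col3a1 followed, with differences of -0.71 ± 0.27 and 1.25 ± 0.51 (SE). Without control library 2 of 3 months these were -0.93 and 1.46 and did not pass.

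Between 3 and 12 months, control retina gained in Col22a1 and Col5a2, and no member was called lower. These were 2 of 43 members, where 2.11% of all genes passed, 1.4% higher and 0.71% lower at 12 months. In KO retina Col22a1 and Col4a3 rose and Col8a2 and Col8a1 fell, 4 of 43 members, where 2.37% of all genes passed, 1.54% higher and 0.832% lower. The age comparisons share their libraries with the genotype comparisons, so the values of Col5a2 in control retina of 12 months enter both. Xist had 0.0686 to 0.609 scaled CPM in KO libraries of 3 months and 52.3 to 85.5 in those of 12 months. Sex is not in the labels, and its part in the changes with age in KO retina was not tested.

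Col22a1 (Entrez 69700, chromosome 15 from 71795795 to 72150979, minus strand, GRCm38), a FACIT known from junctions between tissues such as muscle and tendon, rose with age in both genotypes. In control retina it had 6.01, 6.50 and 6.26 scaled CPM at 3 months and 11.4, 11.5 and 10.7 at 12 months. In KO retina it had 6.45, 5.83 and 7.27 scaled CPM at 3 months and 9.94, 10.7 and 12.5 at 12 months. All 6 libraries of 12 months lay above all 6 of 3 months, and the genotypes overlapped at each age.

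The log2 fold change of Col22a1 with age was 0.84 ± 0.13 (SE; edgeR adjusted p = 0.000728) in control and 0.76 ± 0.13 (SE; edgeR adjusted p = 0.00215) in KO retina, or 1.79-fold and 1.70-fold. It passed in both genotypes under all 22 alternatives. The 12 skeletal muscle markers summed to 83.9 to 96.3 scaled CPM in control and 6.34 to 10.3 in KO libraries of 3 months, and their part in the level of Col22a1 was not tested. The other 8 FACITs did not pass with age, and their log2 fold changes ran from -0.18 to 0.95 in control and from -0.16 to 1.44 in KO retina, the highest being that of Col19a1 in both.

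Col5a2 rose with age in control retina, from 1.42 ± 0.39 to 3.75 ± 0.53 scaled CPM (SD, n = 3). The log2 fold change was 1.40 ± 0.27 (SE; edgeR adjusted p = 0.00536), or 2.64-fold, and it passed under all 22 alternatives. In KO retina it had 1.36 ± 0.25 scaled CPM (SD, n = 3) at 3 months and 1.41 ± 0.39 (SD, n = 3) at 12 months, with a log2 fold change of 0.05. The 2 changes with age were compared by the difference of the KO effects above, which did not pass.

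Col4a3 and Col4a4, whose chains join that of Col4a5 in a type IV network known from the kidney filter and from Alport syndrome, had higher means at 12 months in both genotypes. Col4a3 (Entrez 12828, chromosome 1 from 82586921 to 82722059, plus strand, GRCm38) had 9.28, 19.4 and 10.4 scaled CPM in control libraries of 3 months and 39.1, 22.1 and 18.9 at 12 months. In KO libraries it had 7.26, 9.15 and 8.36 scaled CPM at 3 months and 20.5, 28.5 and 24.8 at 12 months. The ages overlapped in control retina through control library 2 of 3 months and did not overlap in KO retina.

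The rise of Col4a3 passed in KO retina, with a log2 fold change of 1.57 ± 0.34 (SE; edgeR adjusted p = 0.0444), or 2.98-fold. In control retina it was 1.04 ± 0.33 (SE; edgeR adjusted p = 0.193), and 1.44 ± 0.31 (SE; edgeR adjusted p = 0.0511) without control library 2 of 3 months. The call in KO retina was lost in 10 of 22 alternatives, with adjusted p up to 0.194, among them the fit without a filter and the fits without any 1 of the 6 KO libraries. Of the exon length of Col4a3, 5.65% overlaps the gene C430014B12Rik, and the strand setting of the counting is not given in the sources used here.

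Col4a4 starts 126 bases from Col4a3 on the opposite strand. It had 8.63, 14.5 and 9.37 scaled CPM in control libraries of 3 months and 23.0, 13.6 and 14.3 at 12 months, and 7.63, 6.34 and 8.46 in KO libraries of 3 months and 9.61, 18.9 and 19.3 at 12 months. Its log2 fold change with age was 1.09 ± 0.31 (SE; edgeR adjusted p = 0.114) in KO and 0.65 (edgeR adjusted p = 0.407) in control retina, so it did not pass. It was called in KO retina in 4 of 22 alternatives, with DESeq2, with limma-voom, without control library 1 of 12 months and without KO library 1 of 12 months, where the log2 fold change was 1.35 (edgeR adjusted p = 0.0136). Col4a5, the X-linked partner, had log2 fold changes with age of -0.14 ± 0.13 in control and -0.04 ± 0.13 (SE) in KO retina and did not pass. Without control library 2 of 3 months, the log2 fold change with age in control retina was 0.915 for Col4a4 and 0.007 for Col4a5. In the same fit it was -0.21 for Col4a1 and -0.10 for Col4a2, and none of these genes passed.

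Col8a1 and Col8a2 encode the chains of type VIII collagen, a short-chain collagen of the lattice under the corneal endothelium and of vessel walls, and both were lower in KO retina at 12 than at 3 months. They lie on different chromosomes, and per kb Col8a2 exceeded Col8a1 by 2.49 to 5.09 times over the 12 libraries. The 120 bases before each start are shown because both genes were called lower with age in KO retina. They are from RefSeq (GRCm38.p6), 5′ to 3′ on the strand of the gene, at chr16:57754738-57754857 (minus strand) and chr4:126286674-126286793 (plus strand). Capitals mark the letters GGGCGG or, on the other strand, CCGCCC, a GC box.
Col8a1: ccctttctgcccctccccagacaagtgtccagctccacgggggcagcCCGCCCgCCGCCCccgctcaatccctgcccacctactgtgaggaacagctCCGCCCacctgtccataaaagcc
Col8a2: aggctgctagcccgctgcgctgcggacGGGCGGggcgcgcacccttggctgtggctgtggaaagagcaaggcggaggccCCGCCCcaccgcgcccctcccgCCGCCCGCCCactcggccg
The first window holds 3 matches and the second 4, counting overlapping matches separately, and neither holds TATAAA or CCAAT on either strand.

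Over the collagen family such matches were common. In the 250 bases before the start, GGGCGG on either strand was found in 22 of 37 promoter entries of 34 members, or 59.5%, against 32.7% of 32851 entries of all genes. CCAAT was found in 35.1% against 33.8%, and TATAAA in 10.8% against 12.4%. A match describes the letters of the window and no binding.

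Col8a2 (Entrez 329941, chromosome 4 from 126286794 to 126314330, plus strand, GRCm38) had 16.8, 14.1 and 16.6 scaled CPM in KO libraries of 3 months and 7.43, 9.62 and 6.35 at 12 months. The ages did not overlap, and the log2 fold change was -1.02 ± 0.19 (SE; edgeR adjusted p = 0.00513), or 2.03-fold lower, which passed under all 22 alternatives. In control retina it had 10.7, 14.4 and 8.54 scaled CPM at 3 months and 10.1, 9.99 and 7.09 at 12 months, which overlapped. The log2 fold change there was -0.31 (edgeR adjusted p = 0.571), and -0.09 (edgeR adjusted p = 0.882) without control library 2 of 3 months.

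At 3 months the KO mean of Col8a2, 15.8 ± 1.51 scaled CPM (SD, n = 3), was above the control mean of 11.2 ± 2.95 (SD, n = 3). The log2 fold change was 0.50 ± 0.19 (SE; edgeR adjusted p = 0.644), and limma-voom gave 0.71 with an adjusted p of 0.013. Without control library 2 of 3 months it was 0.72 ± 0.17 (SE; edgeR adjusted p = 0.157). At 12 months the means were 9.04 ± 1.69 in control and 7.80 ± 1.67 in KO retina (SD, n = 3).

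Col8a1 (Entrez 12837, chromosome 16 from 57624256 to 57754737, minus strand, GRCm38) had 6.65, 6.21 and 6.36 scaled CPM in KO libraries of 3 months and 4.00, 4.24 and 4.28 at 12 months. The ages did not overlap, and the log2 fold change was -0.62 ± 0.15 (SE; edgeR adjusted p = 0.0334), or 1.53-fold lower. In control retina it had 6.35, 4.93 and 5.79 scaled CPM at 3 months and 4.14, 4.47 and 4.96 at 12 months, which overlapped through a single library, with a log2 fold change of -0.33 (edgeR adjusted p = 0.374). The call in KO retina was lost in 7 of 22 alternatives, those with a replicate block or without any 1 of the 6 KO libraries, with adjusted p up to 0.153.

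Summed markers of other cells moved with these ages. In KO retina 10 pericyte and smooth muscle markers summed to 68.7 to 71.3 scaled CPM at 3 and 52.9 to 63.2 at 12 months, and 9 pigment epithelium and melanocyte markers to 70.6 to 92.6 and 46.5 to 67.9, with no overlap. Of 9 tested markers of the first list, 7 had a negative and 2 a positive log2 fold change in KO retina, with a median of -0.29. Of the 9 markers of the second list, 4 were negative and 5 positive, from -0.79 to 1.21 with a median of 0.11. That second list thus did not fall as a whole. In control retina the first list summed to 68.9 to 88.3 and 57.3 to 66.1 scaled CPM, and the second to 71.1 to 109.0 and 56.6 to 76.5. There 8 of 9 tested markers of the first list and 7 of 9 of the second had a negative log2 fold change. None of these markers was at 0 throughout a group, and their part in the levels of Col8a1 and Col8a2 was not tested.

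**Figure D5:**
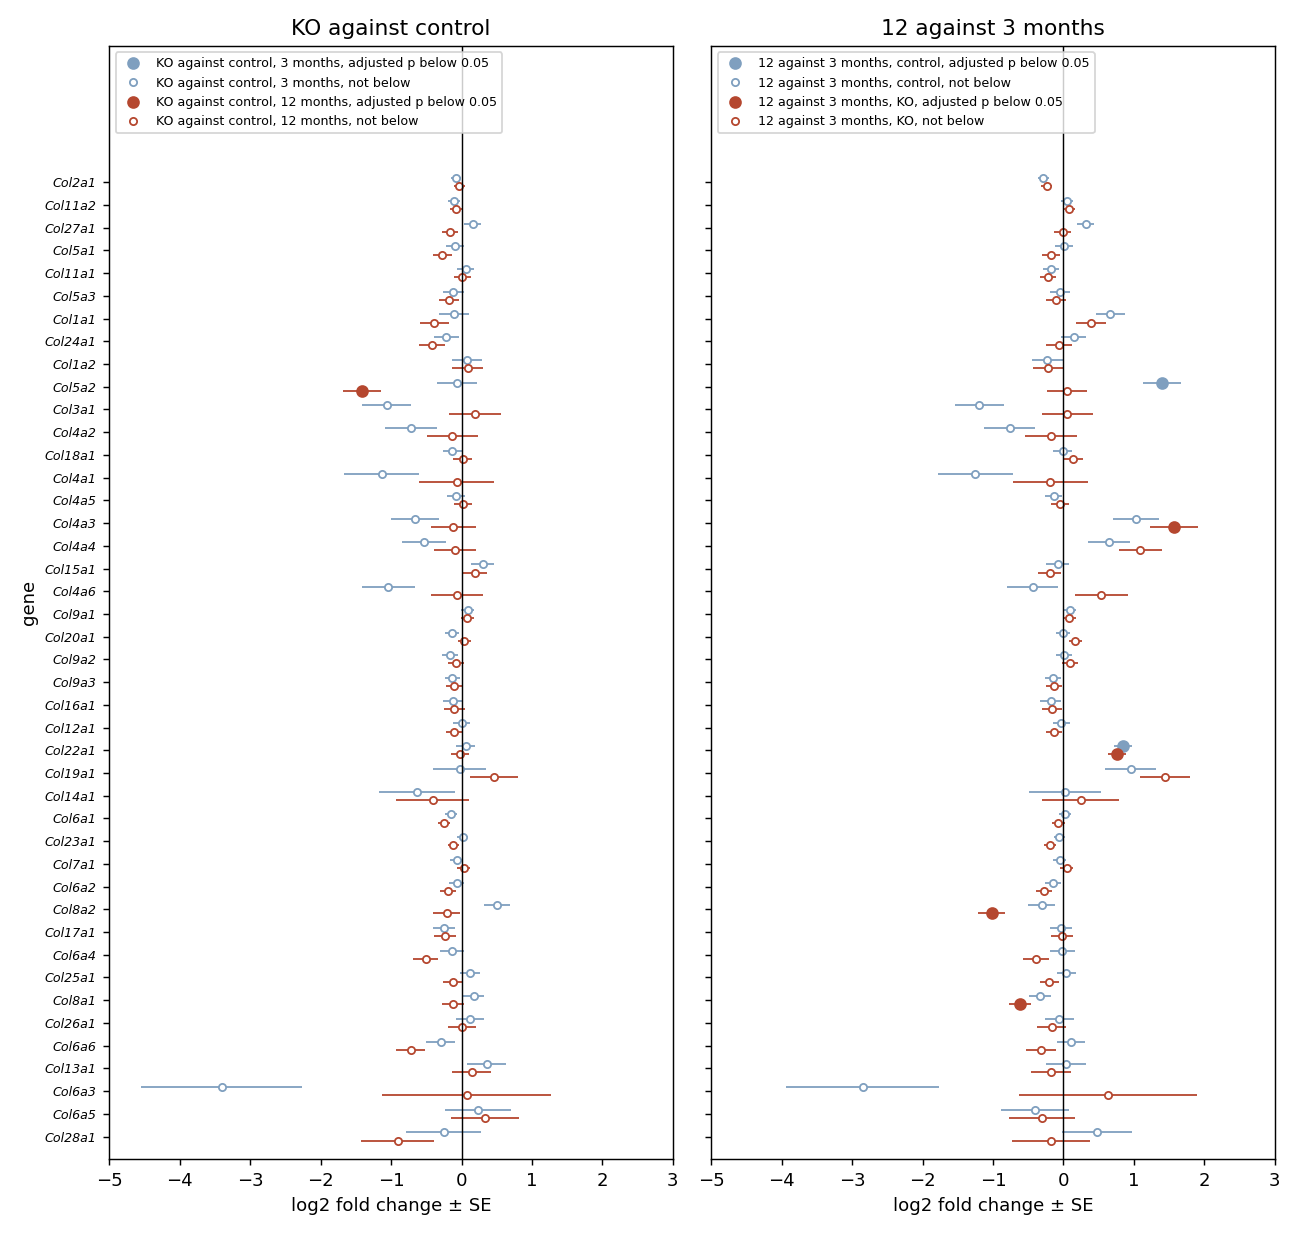
Log2 fold change with its standard error for each of the 43 collagen genes, for KO against control at each age (left) and for 12 against 3 months in each genotype (right); filled points have an adjusted p below 0.05. The filled points are Col5a2 on the left, and Col5a2, Col22a1, Col4a3, Col8a2 and Col8a1 on the right.

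Several members lay just outside the threshold in the age comparisons. Col2a1 had 209.1 ± 12.3 scaled CPM (SD, n = 3) in control retina at 3 months and 171.3 ± 7.47 (SD, n = 3) at 12 months, with no overlap, and its log2 fold change was -0.29 ± 0.08 (SE; edgeR adjusted p = 0.0513). It was called with DESeq2, with limma-voom, without a filter, without control library 1 of 3 months and without KO library 1 of 12 months. In KO retina its log2 fold change with age was -0.24 (edgeR adjusted p = 0.120), and it was called with limma-voom and without control library 2 of 3 months (-0.24, edgeR adjusted p = 0.0407).

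Col19a1, a FACIT-like collagen found in brain interneurons, went in KO retina from a mean of 3.03 ± 0.78 scaled CPM at 3 months to 8.19 ± 2.93 at 12 months (SD, n = 3 each), with a log2 fold change of 1.44 ± 0.36 (SE; edgeR adjusted p = 0.0576). It was called in 6 of 22 alternatives, with DESeq2, with limma-voom, with a filter of 1 CPM in 3 libraries, with only the libraries compared and without control library 1 or 2 of 12 months. In control retina the values were 3.08 ± 0.77 and 5.96 ± 2.96 scaled CPM (SD, n = 3), with a log2 fold change of 0.95 (edgeR adjusted p = 0.260). Col1a1 and Col1a2, the chains of type I collagen, had opposite signs with age in control retina, at 0.66 ± 0.21 and -0.23 (log2 scale), and neither passed. The opposite sign rested on control library 2 of 3 months, without which the values were 0.69 and 0.04 and again neither passed. Col1a1 was called with limma-voom and without KO library 1 of 12 months, at 0.66 with an edgeR adjusted p of 0.0441. Without control library 2 of 3 months, Col3a1 fell with age in control retina, with a log2 fold change of -1.40 (edgeR adjusted p = 0.0394), against -1.19 (adjusted p = 0.0948) with it, and limma-voom also called it.

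Over all members 25 of 43, or 58.1%, had a negative log2 fold change with age in control retina against 49.6% of all genes, and 27, or 62.8%, in KO retina against 50.2%. With each library left out in turn the first number ran from 19, without control library 2 of either age, to 29, and the second from 24, without KO library 2 of 3 or 1 of 12 months, to 30. Values of 12 months lay above all values of 3 months for 4 and below for 4 members in control retina, against 9.21% and 8.29% of all genes, and for 5 and 8 members in KO retina, against 10.7% and 11.5%. An unadjusted p below 0.05 was reached by 11 members in control and 10 in KO retina, against 12.5% and 13.3% of all genes. The median was -0.03 in control and -0.11 in KO retina, and with single libraries left out it ran from -0.08 to 0.06 and from -0.17 to -0.02. Negative values were most frequent among the other collagens of KO retina, where 13 of 15 members were negative with a median of -0.19, and 2 of them, Col8a1 and Col8a2, passed.

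Genes that make, process, bind or sense collagen were tested as lists of non-members, 73 tested genes in all. None passed between KO and control retina at 12 or at 3 months with edgeR. With DESeq2 0 of 80 passed at 12 and 1 at 3 months, against 0.589% and 0.29% of all genes. With limma-voom 0 of 73 passed at 12 and 1 at 3 months, against 1.13% and 0.48% of all genes. Both methods called the matricellular gene Thbs1 at 3 months. An unadjusted edgeR p below 0.05 was reached by 2, or 2.74%, at 12 months against 8.7% of all genes, and by 13, or 17.8%, at 3 months against 7.5%. The 13 became 8 of 74 without control library 2 of 3 months and 8 of 73 without KO library 2 of 3 months. They became 17 of 74 without control library 1 and 16 of 74 without control library 3 of 3 months, so the count ran from 8 to 17 with single libraries left out. The lists held 18 modifying enzymes and chaperones, 11 genes of processing and cross-linking, 9 receptors, 16 other basement membrane genes, 8 proteases and inhibitors and 11 collagen-binding proteoglycans and glycoproteins. Their medians at 12 months ran from -0.07 for the proteases to 0.21 for the receptors on the log2 scale.

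With age 2 of the 73, or 2.74%, passed in each genotype, near the 2.11% and 2.37% of all genes. At an unadjusted edgeR p below 0.05 there were 16, or 21.9%, in control retina against 12.5% of all genes. In KO retina there were 17, or 23.3%, against 13.3%. With single libraries left out these counts ran from 13 to 21 in control and from 12 to 21 in KO retina. DESeq2 called 6 of 80 tested list genes in control and 4 of 80 in KO retina, against 2.64% and 2.72% of all genes. With limma-voom 6 and 10 of 73 passed, against 4.69% and 8.01% of all genes. Tnxb, a tenascin that spaces collagen fibrils, rose from 12.7 ± 2.05 to 20.5 ± 1.84 scaled CPM (SD, n = 3) in control and from 9.49 ± 0.08 to 19.9 ± 3.86 (SD, n = 3) in KO retina, with log2 fold changes of 0.69 (edgeR adjusted p = 0.00845) and 1.07 (edgeR adjusted p = 0.000158). The call in control retina was lost without control library 1 of 3 or 3 of 12 months. Serpinh1, the collagen chaperone HSP47, fell from 18.2 ± 5.15 to 11.8 ± 0.93 scaled CPM (SD, n = 3) in control retina, with a log2 fold change of -0.63 (edgeR adjusted p = 0.0303), and -0.37 (adjusted p = 0.109) without control library 2 of 3 months. That call was lost in 5 of 22 alternatives, also without any 1 control library of 12 months and with only the libraries compared. Dcn, the proteoglycan decorin, rose from 0.465 ± 0.14 to 1.28 ± 0.35 scaled CPM (SD, n = 3) in KO retina, with a log2 fold change of 1.46 (edgeR adjusted p = 0.0488), and 1.30 (adjusted p = 0.15) without KO library 1 of 12 months. That call was lost in 12 of 22 alternatives, with the replicate block, with only the libraries compared and without any 1 library other than control library 2 of 3 months and KO library 3 of 12 months.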

How the data were processed

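Whole-retina RNA of 12 libraries was sequenced. Per the submitters' processing notes, HISAT2 2.1.0, GRCm38, featureCounts 1.6.4 and DESeq2 1.22.1 were used, and the sources used here do not give the strand setting, filters or treatment of read pairs. The deposited count files of the authors list unnormalized counts by Entrez ID, with totals of 29027099 to 30438026 per library. Of 27179 IDs, 25275 were named from a RefSeq table of GRCm38.p6 and 18 further ones from GENCODE, and the 1886 unnamed held at most 0.282% of the counts. The authors' 12-month table was deposited without a header, and its columns were read as a mean signal (normalized count), a log2 fold change, its standard error, a score (Wald statistic), a p-value and an adjusted p-value.

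Counts were fitted with edgeR 4.0.16 (R 4.3.3; filterByExpr, TMM scaling, robust quasi-likelihood fit, 1 coefficient per group, all 12 libraries), with Benjamini-Hochberg adjustment over 16475 genes and a threshold of 0.05. The biological coefficient of variation was 0.11. A pipeline test on simulated counts was run first. Scaled CPM are counts per 1e6 of the TMM-scaled library size, and exon lengths and positions are from GENCODE annotation of GRCm38. Alternatives used DESeq2 1.42.0, limma 3.58.1 (voom with quality weights), other scalings and filters, a replicate block and each library left out. Halved counts, in case both reads of a pair were counted, and spreads and class sums without control library 2 of 3 months were chosen after seeing the data.

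The members and lists were chosen with earlier results of these data known. Values in every library are given for members past the threshold in any comparison and for the 2 most abundant members by mean CPM in each class, with trimer partners beside them. Non-member genes were named where they passed. Col6a3, Col6a4, Col6a6, Col3a1, Col7a1, Col19a1, Col28a1 and Thbs1 were named after their values had been seen. Promoter sequences were matched by symbol for 34 of 43 members.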

Additional observations from a re-analysis of the deposited data

How the results depend on the processing

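Each comparison was repeated under 23 alternative settings, and no called value changed sign. The number of collagen genes called in KO against control retina at 12 months, 1 in the fit reported, was 0 to 1 when single libraries were left out. At 3 months the number was 1 in place of 0 with limma-voom, which called 0.48% of all genes. For 12 against 3 months, control retina had 2 calls in the fit reported, 6 with limma-voom, 4 with an adjusted p below 0.1 and 2 to 4 with single libraries left out, the 4 without KO library 1 of 12 months. KO retina had 4 calls, 9 with limma-voom and 2 to 6 with single libraries left out. Of all genes limma-voom called 4.69% with age in control and 8.01% in KO retina, against 2.11% and 2.37% in the fit reported. With single libraries left out, these shares ran from 1.2% to 2.87% in control and from 1.12% to 4.29% in KO retina. The causes were not tested.

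The labels number the libraries 1 to 3 in each group and nothing says that a number is shared. Deviations from the group means correlated between same-numbered libraries by -0.08 to 0.04, so the numbers were not taken as pairs. With the replicate number as a block, KO retina had 2 calls with age in place of 4, and the calls of the other comparisons were the same in number.

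Of 65 values of 13 named collagen genes, 7 were called, and 4 of these were called in every alternative: Col22a1 with age in both genotypes, Col5a2 with age in control retina and Col8a2 with age in KO retina. Depth limits the members with few counts, such as Col28a1 with 4 to 22 and Col14a1 with 5 to 25 counts per library.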
